A study of Mus musculus with 4 samples.

Results

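Chromatin accessibility was examined at 10 imprinted genes of the mouse, H19, Igf2, Dlk1, Meg3, Grb10, Peg3, Ndn, Igf2r, Mest and Plagl1, in hematopoietic stem cells (HSCs) with and without Med23. A peak belonged to a gene when it overlapped the gene body or the 20 kb on either side of it. By this rule 21 of the 37887 peaks of the WT list and 24 of the 37615 peaks of the KO list lay at the 10 genes. Overlapping peaks of both lists were merged, which gave 28 regions out of 45475 on the autosomes and chromosome X.

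An imprinted gene is expressed mainly from the allele inherited from 1 parent. The choice is kept by control regions, CpG-rich stretches whose DNA is methylated on the maternal or the paternal copy only. ATAC-seq, in which the Tn5 transposase cuts open DNA, reads both copies together, so the peaks below do not separate the parental alleles. In the blood system the H19-Igf2 and Dlk1-Meg3 domains and the growth regulator Ndn are known for their part in keeping stem cells quiescent, and H19 is among the genes whose transcripts the study followed in these cells.

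The 4 samples were HSCs of adult C57BL/6 mice, 2 labelled WT (Med23floxp/flowp) and 2 labelled KO (Mx1-cre;Med23floxp/flowp), so both groups carry the floxed alleles and the KO group alone the cre. Mx1-cre is driven by an interferon-inducible promoter that is not restricted to stem cells, and the study switched it on by injecting poly(I:C). For its blood counts the study names poly(I:C) for both WT and KO mice. Its methods for this assay do not say whether the WT mice were injected. Ages, and whether animals were pooled, are not given. The cells were sorted from bone marrow, 5000 per library, by the labels as LSK CD150+CD34-CD48- and by the study's methods for this assay without the CD34 gate.

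For each genotype the labels point to a single list for both samples. A WT list was therefore set against a KO list, no difference has a replicate check, and the intervals given cover counting error only. Read totals are unknown. The height of a peak is given as the pileup, the number of fragments or reads stacked at its summit, recovered from the fold enrichment and p-value of the peak caller. Its median was 18 among WT peaks and 19 among KO peaks, and the smallest was 6 in both lists. Distances are from the gene start and are negative upstream of it. Promoter peaks were present at 5 of 8 HSC markers in each list (not at Ly6a, Slamf1 and Procr), and at none of 3 T cell, 3 B cell and 5 granulocyte and monocyte markers. Over all protein-coding genes the share with a promoter peak was 61.3% in WT and 60.9% in KO. The count for the HSC markers is near that share and does not by itself identify the cells. Promoter peaks were also present at 3 of 4 stromal markers. Those were Col1a1 and Pdgfrb in both lists and Cxcl12 in a region that both lists shared but with only the WT summit within reach of the start. The part of such cells in the values below was not tested. The pileups at the Med23 promoter were 64 (WT) and 85 (KO), which does not check the deletion, since the promoter need not lie in the floxed part.

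The sequences under the best known control elements were read from the GRCm38/mm10 reference (RefSeq). The control region of H19 binds CTCF on the maternal copy and insulates Igf2 from enhancers beyond H19. Its repeated core was searched as GNGGNGGCA on both strands, overlaps counted, and was found 3 times between 2 and 4 kb upstream of H19. At least 3 matches were found in 1.36% of the equally long windows upstream of 27060 genes. The letters are those of this element and the limit of 3 is its own count, so the share does not test enrichment. The 3 sites are shown 5′ to 3′ with the core in capitals. The site at 2626 bp lay inside the WT peak described next, the other two outside it.
H19 control region, 2171 bp upstream of H19, chr7:142580300-142580328, minus strand: acgatgccgcGTGGTGGCAgtacaatact
H19 control region, 2626 bp upstream of H19, chr7:142580755-142580783, minus strand: atgctaccgcGCGGTGGCAgcatactcct
H19 control region, 3896 bp upstream of H19, chr7:142582025-142582053, minus strand: gagttgccgcGTGGTGGCAgcaaaatcga

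Peg3, the start of Airn within Igf2r, and Plagl1 have control regions that are methylated on the maternal copy. Below are the 300 bp around the summits called there. Capitals mark the YY1 site of Peg3 (GCCATNTT) and the hexamer TGCCGC, which the imprint-keeping factor ZFP57 reads in its methylated form, on either strand. The window at Peg3 held 2 YY1 sites and 2 hexamers, that at Airn 2 hexamers and that at Plagl1 1 hexamer. Among all 45475 windows of this length, 5.02% held a YY1 site and 11.4% a hexamer. These are matches of letters and not measured binding.
Peg3 intron, chr7:6729410-6729709, minus strand: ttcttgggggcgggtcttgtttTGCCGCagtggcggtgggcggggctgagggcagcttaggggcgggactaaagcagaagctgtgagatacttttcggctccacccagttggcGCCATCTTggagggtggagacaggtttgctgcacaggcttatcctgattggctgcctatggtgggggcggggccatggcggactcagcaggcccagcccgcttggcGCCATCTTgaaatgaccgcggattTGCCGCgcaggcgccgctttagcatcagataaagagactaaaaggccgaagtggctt
Airn start within Igf2r, chr17:12741603-12741902, minus strand: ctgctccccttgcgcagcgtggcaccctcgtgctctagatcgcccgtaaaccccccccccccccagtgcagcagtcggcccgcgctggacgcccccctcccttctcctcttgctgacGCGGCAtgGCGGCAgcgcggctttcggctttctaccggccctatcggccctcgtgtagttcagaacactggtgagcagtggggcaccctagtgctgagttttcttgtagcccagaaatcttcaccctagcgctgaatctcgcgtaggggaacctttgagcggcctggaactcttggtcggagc
Plagl1 start, chr10:13090609-13090908, plus strand: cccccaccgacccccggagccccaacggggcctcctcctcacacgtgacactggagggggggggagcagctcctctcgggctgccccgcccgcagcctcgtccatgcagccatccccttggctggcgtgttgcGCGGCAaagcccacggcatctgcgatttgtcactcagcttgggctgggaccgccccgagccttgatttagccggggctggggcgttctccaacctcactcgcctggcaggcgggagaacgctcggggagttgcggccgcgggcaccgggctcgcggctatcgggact

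Of the 28 regions at the 10 genes, 17 had a peak in both lists, 60.7% (95% Wilson interval 42.4% to 76.4%) against 64.8% of all regions. Another 4 were in the WT list only, where 18.1% of all regions were WT only, and 7 were in the KO list only, where 17.2% of all regions were KO only. The genes differed among themselves. H19 and Igf2 had peaks in the WT list alone, Plagl1 had a peak in the KO list alone, Meg3 had none in either, and the other 6 had peaks in both. Over all 27060 protein-coding and lincRNA genes, 2.97% had a WT peak and no KO peak within 20 kb, 2.14% a KO peak and no WT peak, and 22.5% no peak. H19 and Igf2 are neighbours in 1 domain and do not count as independent cases. Over the 10 genes peaks covered 928 bp more in KO than in WT, a difference that was −20 bp with 50 kb on each side. Summed over all protein-coding genes, covered bases were 27.2 Mb in WT and 26.8 Mb in KO. By gene, more bases were covered in KO at Dlk1, Grb10, Peg3, Igf2r and Plagl1, and in WT at H19, Igf2, Ndn and Mest. Among protein-coding genes 39.8% had more covered bases in KO and 41.3% in WT.

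**Figure D1:**
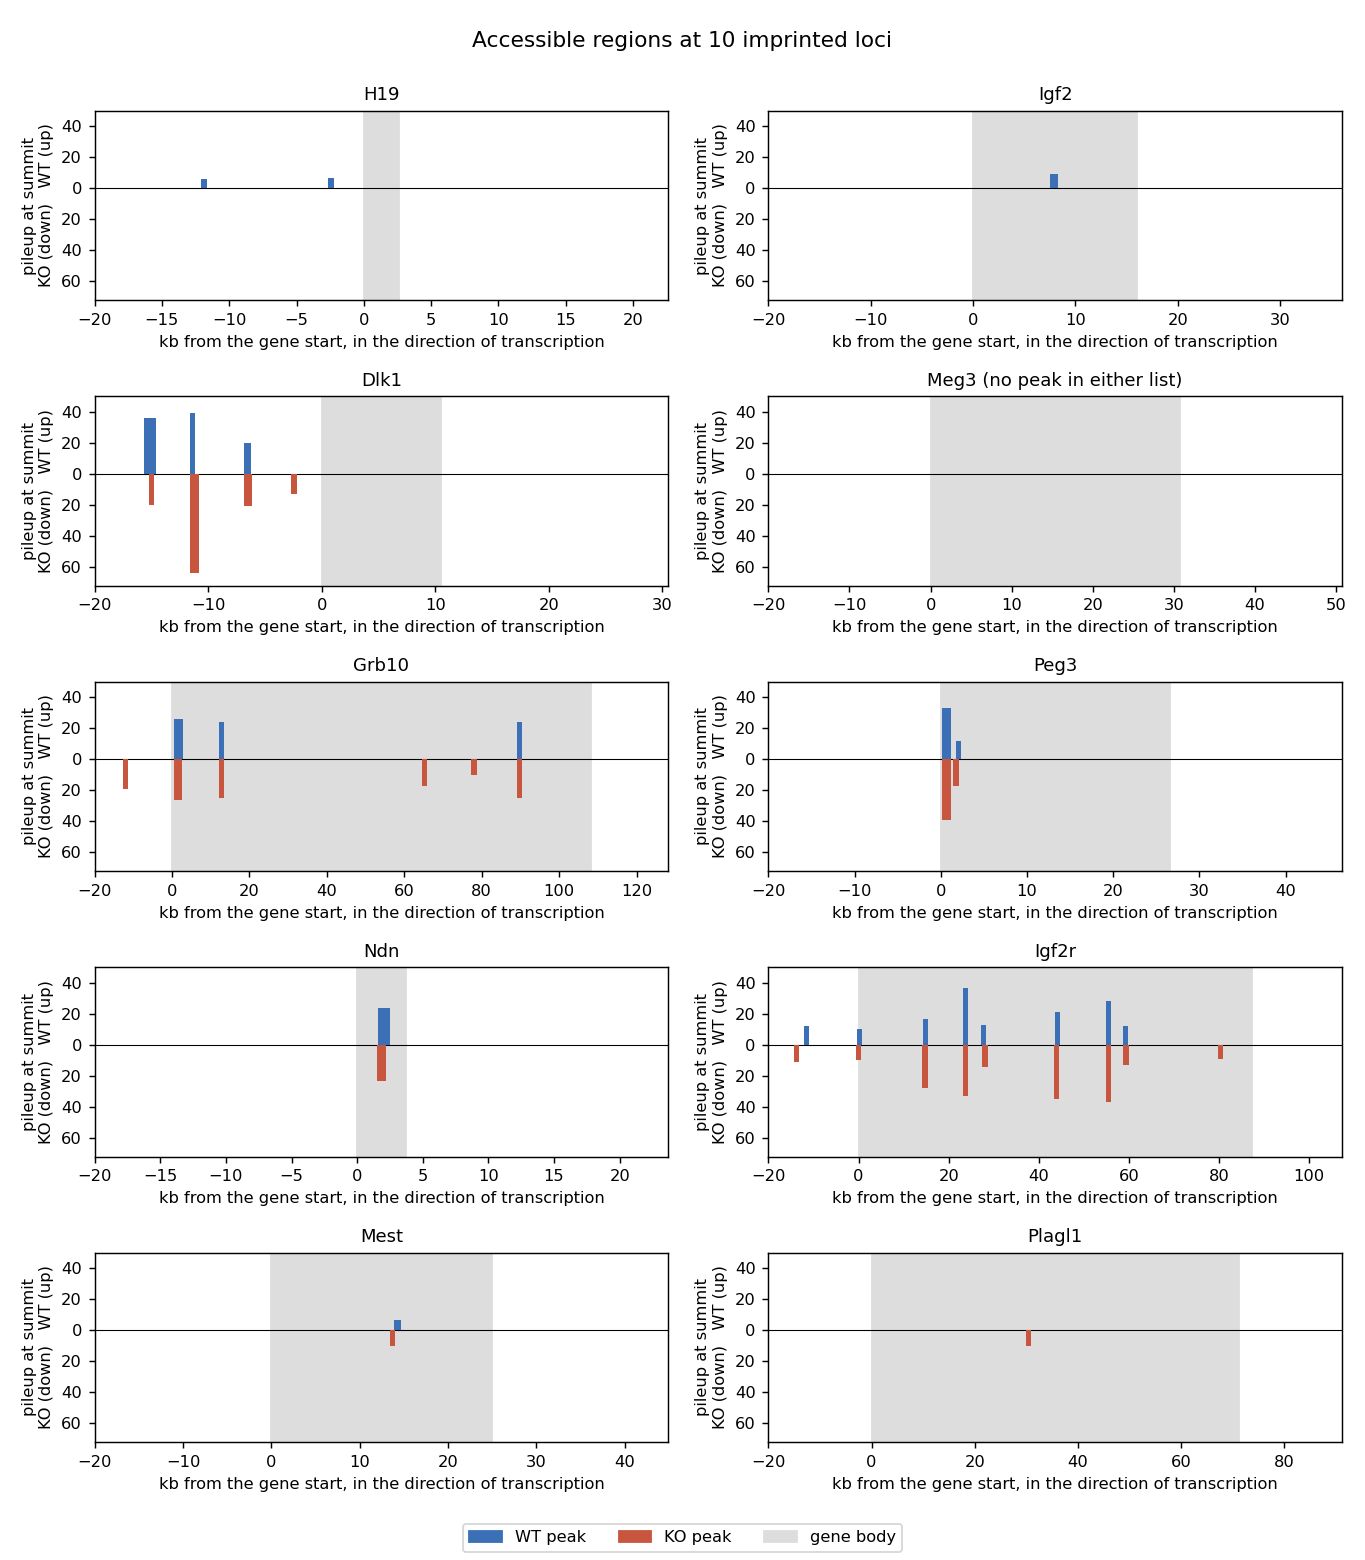
Pileup at the summit of each peak at the 10 imprinted genes, WT bars drawn up and KO bars down, against distance from the gene start in kb, with gene bodies in grey and the narrowest peaks drawn wider than they are. H19 and Igf2 have WT bars only, Plagl1 a KO bar only and Meg3 none, and the tallest bar is the KO peak of 64 upstream of Dlk1.

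H19 (ENSMUSG00000000031.16, chromosome 7, 142575529 to 142578143, minus strand) encodes a maternally expressed long noncoding RNA. The WT list held 2 peaks upstream of it and the KO list none. The nearer one (142580343 to 142580807) lay in the control region with its summit 2392 bp upstream of the start, at a pileup of 7 and a fold enrichment of 3.65. The farther one (142589827 to 142590256, intergenic) lay at −11.9 kb with a pileup of 6, the smallest of the list. The H19 promoter itself had no peak in either list.

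Igf2 (ENSMUSG00000048583.16, chromosome 7, 142650766 to 142666816, minus strand) encodes a paternally expressed growth factor. Its only peak was in the WT list (142658467 to 142659275), 316 bp upstream of an internal start, over an exon within a CpG island. The pileup was 9 and the fold enrichment 4.30. With it, peaks covered 809 bp of the Igf2 window in WT and 0 in KO, and 895 bp against 0 at H19. The KO list held no peak from 142533744 to 142918990, a stretch of 385.2 kb that contains both genes. Such stretches were common, since 991 of 37595 intervals between neighbouring KO peaks were as long and together made up 34.7% of the interval length.

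The 3 WT peaks at H19 and Igf2 were weak, with −log10 q values of 2.30, 1.55 and 3.59 in a list that ends at 1.3. In the whole WT list 74.2% of the peaks with a −log10 q between 1.3 and 2.5, and 49.5% of those between 2.5 and 5, had no partner in the KO list. None of the 3 remained at a −log10 q of at least 5. A list gives no height where it calls no peak, so the KO level at these sites is unknown and no ratio is given.

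Dlk1 (ENSMUSG00000040856.17, chromosome 12, 109452823 to 109463336, plus strand) encodes a paternally expressed transmembrane ligand related to Notch ligands. All its regions lay upstream of the gene in intergenic DNA, and neither of the CpG islands at its starts had a peak. The region at −14.9 kb (109437203 to 109438204) had pileups of 36 (WT) and 20 (KO), and its log2 KO to WT ratio was −0.76 (95% interval −1.63 to 0.065). The region at −11.2 kb (109441208 to 109442007) was higher in KO, with pileups of 39 (WT) and 64 (KO) and a log2 ratio of 0.80 (0.20 to 1.41). A ratio here is that of the pileups, each over the lowest background of its list, and its interval is the exact binomial one.

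These neighbours gave the lowest and 1 of the 3 highest ratios at the 10 genes. Their windows are shown with each CpG in capitals, 18 in the first and 6 in the second.
Dlk1, −14.9 kb, chr12:109437816-109438115, plus strand: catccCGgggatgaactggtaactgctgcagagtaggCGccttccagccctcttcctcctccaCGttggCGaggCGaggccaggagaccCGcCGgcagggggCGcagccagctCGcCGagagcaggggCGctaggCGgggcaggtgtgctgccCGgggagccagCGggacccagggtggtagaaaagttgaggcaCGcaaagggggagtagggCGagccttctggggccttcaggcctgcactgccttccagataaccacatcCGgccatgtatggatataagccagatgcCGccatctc
Dlk1, −11.2 kb, chr12:109441438-109441737, plus strand: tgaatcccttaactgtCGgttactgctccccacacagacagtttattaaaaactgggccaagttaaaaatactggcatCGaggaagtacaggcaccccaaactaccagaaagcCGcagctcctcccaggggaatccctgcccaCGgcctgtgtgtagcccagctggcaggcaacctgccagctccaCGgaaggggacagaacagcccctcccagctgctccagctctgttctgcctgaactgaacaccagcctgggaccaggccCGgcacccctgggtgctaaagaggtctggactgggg

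Closer to Dlk1, the region at −6.6 kb had pileups of 20 (WT) and 21 (KO), and a region at −2.5 kb (109450167 to 109450589) was called in the KO list only, at 13. The local background was raised across these peaks, 5.89 in WT and 4.69 in KO at the first region against a lowest background of 1.19 and 1.13. Meg3 (ENSMUSG00000021268.17, chromosome 12, 109541001 to 109571726, plus strand), a maternally expressed long noncoding RNA, had no peak in its window. Its nearest summit was 28.4 kb away in WT and 28.2 kb in KO. Neither its promoter nor the stretch 10 to 16 kb upstream, where the intergenic control region of the domain lies, was covered in either list.

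Grb10 (ENSMUSG00000020176.17, chromosome 11, 11930508 to 12038683, minus strand) encodes an adaptor protein that dampens insulin and growth factor receptor signalling, and its internal CpG island is its control region. The island (12025440 to 12026523) had pileups of 24 (WT) and 25 (KO), and the upstream promoter region (12035947 to 12038280) had 26 in both. In that promoter region the WT and KO summits were 878 bp apart, and whether they mark the same site was not tested. The intronic region 90.1 kb into the gene also had 24 and 25. All 3 intervals of the log2 ratio included 0, with bounds between −0.76 and 1.02. The KO list had 3 further peaks that the WT list did not, at pileups of 10 and 17 in introns and 19 in intergenic DNA at −12007 bp (12050634 to 12050941). The last of these, with a −log10 q of 13.2, was the strongest peak at the 10 genes that lacked a partner. Across the KO list, 10.7% of those with a −log10 q between 10 and 20 lacked one. Covered bases were 4126 in WT and 5491 in KO.

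Peg3 (ENSMUSG00000002265.16, chromosome 7, 6703892 to 6730431, minus strand), a paternally expressed zinc finger gene, had its main peak in the control region shown above. It reached 33 (WT) and 39 (KO), for a log2 ratio of 0.33 (−0.38 to 1.04), and the summits were 1 bp apart. Another intronic peak (6728215 to 6728946) lay in the same control region window, which adds 1 kb on each side of the CpG island. Its pileups were 12 (WT) and 17 (KO), at summits 264 bp apart, and the log2 ratio was 0.59 (−0.56 to 1.79). Ndn (ENSMUSG00000033585.5, chromosome 7, 62346569 to 62350262, plus strand), a paternally expressed gene of the MAGE family, had a peak over its exon at 24 (WT) and 23 (KO), with a log2 ratio of 0.024 (−0.87 to 0.91). The Ndn summit lay 58 bp from the RefSeq start and 1.8 kb from the GENCODE start.

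Mest (ENSMUSG00000051855.15, chromosome 6, 30723547 to 30748465, plus strand), a paternally expressed gene for a predicted hydrolase, had a weak peak in each list at its CpG-island promoter. Their pileups were 7 and 10, but the peaks overlapped by only 49 bp and their summits were 340 bp apart, and whether they mark the same site was not tested. Plagl1 (ENSMUSG00000019817.18, chromosome 10, 13060504 to 13131694, plus strand), a paternally expressed zinc finger gene that restrains proliferation, had its only peak in the KO list (13090547 to 13091248). The summit lay 29 bp upstream of a start, at a pileup of 10 and a −log10 q of 5.13. In the whole KO list 30.9% of the peaks with a −log10 q between 5 and 10, and 52.5% of those between 2.5 and 5, had no partner in the WT list.

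Igf2r (ENSMUSG00000023830.14, chromosome 17, 12682406 to 12769664, minus strand) encodes the receptor that removes IGF2, and is silenced on the paternal copy by the antisense RNA Airn. It had 10 regions, the most of the 10 genes. Its promoter had a pileup of 10 in both lists, and the start of Airn, which is transcribed from the plus strand and is the control region, had 13 (WT) and 14 (KO). The intervals of both log2 ratios included 0, and that of the promoter ran from −1.33 to 1.51. Higher pileups lay in introns. The region 44.0 kb into the gene (12725189 to 12726274) had 21 (WT) and 35 (KO), a log2 ratio of 0.82 (0.0019 to 1.68), and that at 14.9 kb (12754446 to 12755271) had 17 and 28, with 0.81 (−0.11 to 1.77). The tallest WT peak of the gene, at 23.7 kb, had 37 (WT) and 33 (KO), for a log2 ratio of −0.079 (−0.80 to 0.64). The remaining shared regions, at 59.4 and 55.4 kb, had 12 against 13 and 28 against 37. The KO pileup was the higher one, and the log2 ratio above 0, at 4 of these 5 intronic regions. Among all regions with 1 peak of each list, 65.6% had a log2 ratio above 0. Only the interval at 44.0 kb left out 0. Of the 3 regions in 1 list only, 1 was in the WT list at a pileup of 12 and 2 in the KO list at 9 and 11.

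Across the 17 shared regions, each with 1 peak of each list, the median log2 ratio was 0.19, beside 0.17 over all 28909 such regions. The summed pileups were 383 in WT and 440 in KO, beside 868665 and 923234 over all such regions. Of the 17, 9 were above the median of all regions and 15 were above 0, and 65.6% of all such regions were above 0. The 15 include regions that were above 0 only through the lower KO background. These were the upstream promoter region of Grb10 and the Igf2r promoter, with equal pileups and a log2 ratio of 0.086, and Ndn, with 24 (WT) and 23 (KO). The summits with equal pileups were 878 bp apart at Grb10 and 162 bp apart at Igf2r. Above 1.5-fold were 5 regions, where 14.9% of all regions were: those at −11.2 kb of Dlk1, 44.0 and 14.9 kb into Igf2r, at Mest and in the weaker peak of Peg3. The last 2 were just above the limit, and only the first 3 passed it with raw pileups or with the median of all regions subtracted. Below it was 1, the region at −14.9 kb of Dlk1, where 3.66% of all regions were. The interval left out the median of all regions at 2 of the 17, both upstream of Dlk1, and at 3.45% of all regions.

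**Figure D2:**
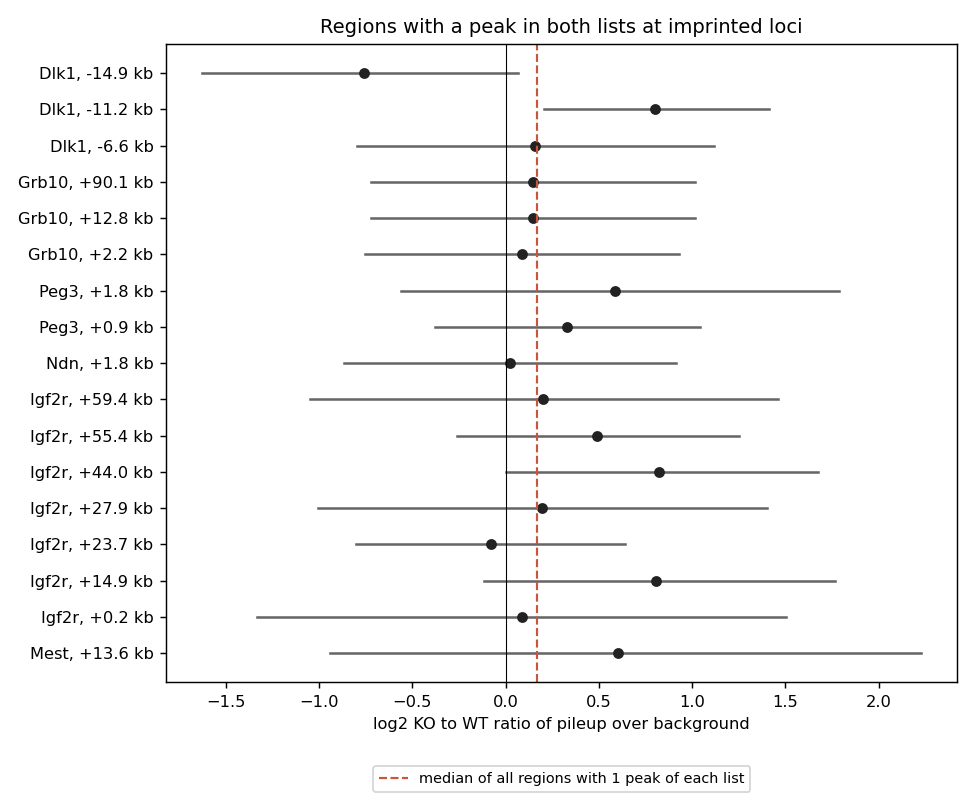
Log2 KO to WT ratio of the pileup over background for the 17 shared regions, labelled by gene and distance from its start, with exact binomial 95% intervals that cover counting error only. The dashed line is the median of all shared regions at 0.17, which 15 of the 17 intervals include.

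Promoter peaks, with a summit within 1000 bp of an annotated start, were present in WT at 6 of the 10 genes, where 52.6% of all genes had one, and in KO at 6, where 52.3% had one. Grb10, Peg3, Ndn, Igf2r and Mest had one in both lists, Igf2 in WT only and Plagl1 in KO only. H19, Dlk1 and Meg3 had none. The count for Ndn rests on its RefSeq start, which was added after its peak had been seen, and with GENCODE starts alone the count was 5 in each list. Of 8 control regions, placed by distance from annotated starts and not by methylation, 4 had peaks in both lists (Airn, Grb10, Peg3 and Mest), 1 in WT only (H19), 1 in KO only (Plagl1) and 2 in neither (the intergenic region and the promoter of Meg3). At the 4 shared control regions the highest pileups were within counting error of each other.

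The strength of the peaks of 1 list only overlapped that of the shared ones. The 4 WT-only peaks had pileups of 6 to 12 and the 7 KO-only peaks 9 to 19, while the shared regions had 7 to 39 in WT (median 24) and 10 to 64 in KO (median 25). At a −log10 q of 5 or more, 0 of 12 WT peaks and 4 of 19 KO peaks lacked a partner, beside 9.81% and 13.3% of all peaks of that strength. The plot by −log10 q gives the shares in narrower groups.

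**Figure D3:**
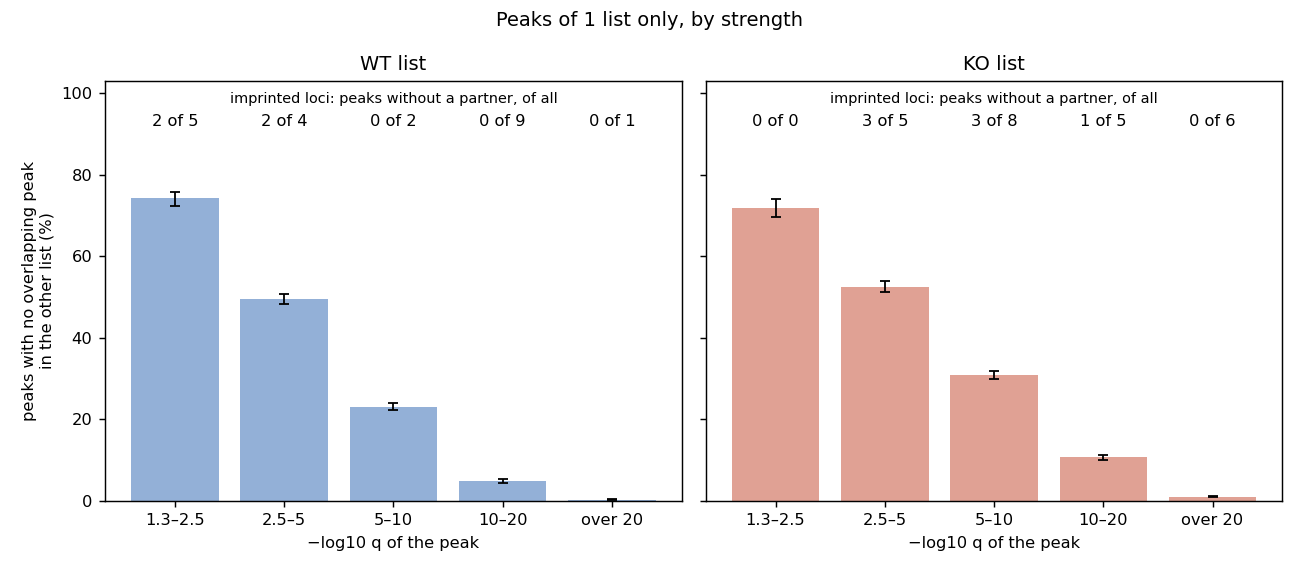
Share of all peaks of the WT list (left) and of the KO list (right) with no overlapping peak in the other list, in percent, by −log10 q, with 95% Wilson intervals and, above the bars, the same counts for the peaks at the 10 genes. The share falls from 74.2% in the weakest WT group to 0.279% in the strongest and from 71.8% to 1.01% in KO, and at the 10 genes no WT peak above 5 and no KO peak above 20 lacks a partner.

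The make-up of the regions was set beside that of all accessible regions. Promoters made up 9 of the 28 (32.1%, 17.9% to 50.7%), beside 36.4% of all regions, and the median GC content was 55.2% beside 51.3%. The ZFP57 hexamer was found in 8 of the 28 windows of 300 bp (28.6%, beside 11.4% of all), the CTCF core in 3 (10.7%, beside 8.56%) and the YY1 site in 2 (7.14%, beside 5.02%), both at Peg3. The hexamer itself contains a CpG. Its windows held 18 CpGs at Dlk1, 18 at Peg3, 28 at Plagl1, 4 and 22 at Grb10, and 8, 23 and 39 at Igf2r. The median over all regions was 6. Several of these windows came from the same gene, and whether the share follows CpG content was not tested. The Peg3 control region as a whole held 7 YY1 sites in 3397 bp, a number reached by 0.0517% of equally long windows at 27060 gene starts. The letters, the number and the window length were all taken from Peg3, so this share does not test enrichment.

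A list of 48 other imprinted genes was set beside the 10. It is not fully separate, since the Airn promoter is the region described at Igf2r, and Peg10 and Sgce share a region. Promoter peaks were in both lists at 27, in 1 list only at 3 and in neither at 18, and the median log2 ratio over 28 promoters was 0.17. Counting each region once and leaving out Airn, it was 0.13 over 26. Of these, 2 were above 1.5-fold and 1 below. The highest log2 ratios were 0.67 at Zdbf2 (−0.98 to 2.44), 0.60 at Ddc (0.067 to 1.15), the neighbour of Grb10, and 0.56 at Gnas (−0.043 to 1.18). The lowest were −0.63 at Rasgrf1 (−1.70 to 0.39), −0.50 at Blcap (−1.39 to 0.36) and −0.40 at Snrpn (−1.46 to 0.63), whose promoter is the control region for Ndn. Magel2, the neighbour of Ndn, had a promoter peak in WT only at 9, Slc22a18 had one in KO only at 19, and at Ascl2 only the summit of the WT peak lay within 1000 bp, in a region that both lists shared.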

How the data were processed

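ATAC-seq libraries of 2 WT and 2 KO samples were processed by the authors. The methods and the submitters' processing notes name Trim Galore, Bowtie2, Picard and MACS2 and the build mm10, and versions are not given in the sources used here. Whether the replicates were pooled for the 1 list per genotype is not stated. Each deposited list gives the authors' fold enrichment ((pileup + 1) over (local background + 1)), −log10 p, −log10 q and summit position. The display score stayed unused.

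Each pair of fold enrichment and −log10 p was solved for the whole-number pileup, which matched the −log10 p within 0.001 for 100% of peaks and was tested on simulated data. Peaks overlapping by at least 1 bp were merged, as in the study's consensus regions. The lowest background is the median of the 1000 smallest values. Ratios are log2 with no pseudocount. CpG islands are joined 200 bp windows with at least 50% GC and an observed to expected CpG ratio of at least 0.6, at least 500 bp long. Starts are from GENCODE M21 and RefSeq, and sequence from GRCm38.p6. Python 3.11.15, numpy 2.4.6, scipy 1.17.1, pysam 0.24.0 and matplotlib 3.10.9 were used.

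The 10 genes and the gene, marker and motif lists were chosen with earlier results of these data known. All 10 genes were named with every peak, and of the other imprinted genes those with a promoter peak in 1 list and the 3 highest and 3 lowest ratios. Chosen after the peaks had been seen were the RefSeq starts, the letters of the CTCF core, the groups by −log10 q, the peak-free stretches, the counts of genes with peaks in 1 list, the count of ratio intervals that leave out the median, the comparison windows for motif numbers and the sequences shown. The share of genes with a promoter peak was planned over protein-coding genes, and lincRNAs were added because H19 and Meg3 are noncoding. Over protein-coding genes alone it was 61.3% in WT and 60.9% in KO. The result of 1 marker list is not reported here.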

Additional observations from a re-analysis of the deposited data

How the results depend on the processing

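No paired analysis was possible because a single list stands for both replicates, and leaving out a replicate could not be run for the same reason. With 50 kb on each side, covered bases (KO minus WT) went from 928 to −20, the WT and KO peaks from 21 and 24 to 37 each, shared regions from 17 to 29 and WT-only regions from 4 to 8. With 10 kb, WT-only regions were 2. At a −log10 q of at least 5 the difference in covered bases was 3276, WT peaks 12 and WT-only regions 0. At 10 or more, WT peaks were 10, KO peaks 11, shared regions 9, WT-only 1, KO-only 2, and promoter peaks 3 of 10 genes in each list. A region counts as WT only at the higher limit when its KO peak falls below it. Requiring an overlap of 50% of both peaks, or summits within 100 bp, gave 10 shared, 11 WT-only and 14 KO-only peaks in either case, by construction of the stricter rule. The median log2 ratio was 0.42 with the fold enrichment as deposited (0.26 over all shared regions), and 3 regions were above 1.5-fold with raw pileups or with the median of all regions subtracted. Reversed values were the ratio at Ndn, −0.061 with raw pileups, which lower every log2 ratio alike, and the covered bases at a −log10 q of at least 10, −542 at Dlk1 and −19 at Peg3. At that limit the Dlk1 region at −14.9 kb kept its WT peak (−log10 q of 14.3) and lost its KO peak (5.19). The weaker region of Peg3 lost both of its peaks (1.62 in WT and 5.46 in KO). Why these peaks differed in strength was not tested. The RefSeq starts were set beside GENCODE starts alone, chosen after seeing the data, with 5 genes in each list. The lists end at a pileup of 6 and give no height below it, and with read totals unknown the part of depth was not tested.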
